A study of Oryctolagus cuniculus with 17 samples.

Results

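Neutrophil marker genes were read in whole right lung of preterm rabbit pups kept in high oxygen or in room air. The group holds 8 genes, S100A8, S100A9, S100A12, CSF3R, CXCR2, MPO, LTF and LCN2, picked by their human gene names, and where a name stood on several rows the row with the highest total count was kept. All 8 were found among the 13827 genes of the count table and all 8 passed the filter on low counts, as did 13142 of all genes.

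The pups were New Zealand White rabbits born by caesarean section on gestation day 28, before term, and milk-fed in incubators. Those in hyperoxia breathed 95% oxygen until postnatal day 3 (HT3, n = 3), day 5 (HT5, n = 2) or day 7 (HT7, n = 3), and those in normoxia breathed 21% oxygen until the same days (NT3, NT5 and NT7, n = 3 each). Preterm birth, tube feeding and the incubator were common to all 6 groups, no genetic change or drug was used, and no term-born group was analysed here. The labels do not say which pups shared a mother, so the p-values measure the spread between these 17 lungs, which may in part be a spread between litters. The 17 libraries held 13123731 to 18111086 counts each, with every locus counted once. Surfactant and other alveolar type 2 genes, the defining markers of distal lung, summed to between 12590 and 33180 CPM (counts relative to all counts of the library) in every library. On day 3 these sums were 24790 to 28060 CPM in HT3 and 17460 to 20390 CPM in NT3 and did not overlap. All 7 genes tested had a positive log2 fold change and 0 of 7 passed by edgeR or DESeq2. The part of this in the day 3 differences below was not tested.

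Neutrophils are short-lived white cells made in bone marrow, and granulocyte colony-stimulating factor drives their production through its receptor CSF3R. They leave the blood for injured tissue along ELR chemokines such as CXCL8, which are read by CXCR1 and CXCR2, after rolling on selectins and adhering to ICAM1 on the vessel wall. Their cytosol is rich in the calcium-binding proteins S100A8, S100A9 and S100A12. Their granules are filled in order during maturation, myeloperoxidase (MPO) in the promyelocyte and lactoferrin (LTF) and lipocalin 2 (LCN2) later, so that a mature neutrophil in tissue carries MPO protein but little MPO mRNA. Neutrophils entering the airspace are a classic feature of hyperoxic lung injury. None of these mRNAs is wholly private to the neutrophil, since monocytes also make the S100 proteins and airway epithelium can make LTF and LCN2.

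In the OryCun2.0 coordinates of the table, the S100 genes lie close together on chromosome 13. S100A8 (ENSOCUG00000009566) spans chr13:39004122-39005042 on the plus strand, S100A12 (ENSOCUG00000022646) spans chr13:39017627-39018847 on the plus strand and S100A9 (ENSOCUG00000008632) spans chr13:39032053-39034219 on the minus strand. The gaps between them are 12584 and 13205 bp, and the 3 do not overlap, so their counts came from separate places. MPO (ENSOCUG00000006526) lies at chr19:29979881-29987807 on the plus strand and LTF (ENSOCUG00000023796) at chr9:14592884-14613699 on the minus strand. CSF3R (ENSOCUG00000011231, GL018704 from 1916790 to 1928382, plus strand) and LCN2 (ENSOCUG00000021002, GL018847 from 453615 to 456754, minus strand) are on unplaced scaffolds.

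The gene called CXCR2 needs a caution. The table gives the human name CXCR2 to 2 rabbit genes, and the kept row (5989 counts in all libraries) is ENSOCUG00000015108, whose rabbit name is CXCR1, at chr7:159539107-159540338 on the minus strand. The other (4575 counts) is ENSOCUG00000025638, described as the rabbit CXCR2, at chr7:159494015-159501196 on the plus strand, 37910 bp away. CXCR1 and CXCR2 are sister receptors of CXCL8 with similar coding sequences, so reads could be shared between them and the split of counts between the 2 rows is uncertain. Both are reported, as the CXCR1-named row (the member by the rule) and the CXCR2-described row.

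Levels below are CPM scaled with TMM factors, a correction for differing RNA composition. They allow a gene to be compared between samples but not with another gene, because counts were not divided by gene length. Differences are log2 fold changes (log2FC) of hyperoxia over normoxia from edgeR's quasi-likelihood test with Benjamini-Hochberg adjusted p over the 13142 genes tested, and a gene passed at an adjusted p under 0.05. A gene said to rise or fall on a day passed upward or downward against normoxia of that day, which is not a change between days. In whole lung, more neutrophils and more mRNA per neutrophil cannot be told apart.

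On day 3, when 1.03% of all genes tested passed in either direction, 0 of the 8 neutrophil genes did (edgeR), although 7 of 8 had a positive log2FC. Their median log2FC was 1.48 against 0.0008 for all genes tested. At an unadjusted p under 0.05, 7 of 8 members passed, as did 15.3% of all genes, and by DESeq2 the adjusted p of CSF3R and of the CXCR1-named row passed, 2 of 8 against 3.81% of all genes. For 3 of the 8 members (S100A9, S100A12 and the CXCR1-named row) the lowest HT3 lung exceeded the highest NT3 lung, which held for 12.9% of all genes. On day 5, CSF3R and the CXCR1-named row were higher in hyperoxia, 2 of 8 genes where 15.9% of all genes passed upward and 31.3% passed in either direction. The same 2 passed by DESeq2 (34.8% of all genes) and at an unadjusted p under 0.05 (43.3%), and the same 2 had all HT5 lungs above all NT5 lungs (26.5%). On day 7, the CXCR1-named row was higher and MPO was lower, 1 of 8 each way where 23.7% of all genes passed in each direction and 47.4% in either. DESeq2 called 2 of 8 (48.7% of all genes), 2 of 8 had an unadjusted p under 0.05 (53.9%), and for 0 of 8 did all HT7 lungs lie above all NT7 lungs (27.3%). The median log2FC of the 8 genes was 0.83 on day 5 and 0.61 on day 7, beside -0.019 and -0.0078 for all genes. The shares of members that passed on days 5 and 7 were near or under those of all genes. By the study's stricter thresholds (adjusted p under 0.01 and a log2FC beyond 2 in size), 0 of 8 members passed on any day in edgeR, where 0.0533%, 1.58% and 4.59% of all genes passed on days 3, 5 and 7.

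**Figure D1:**
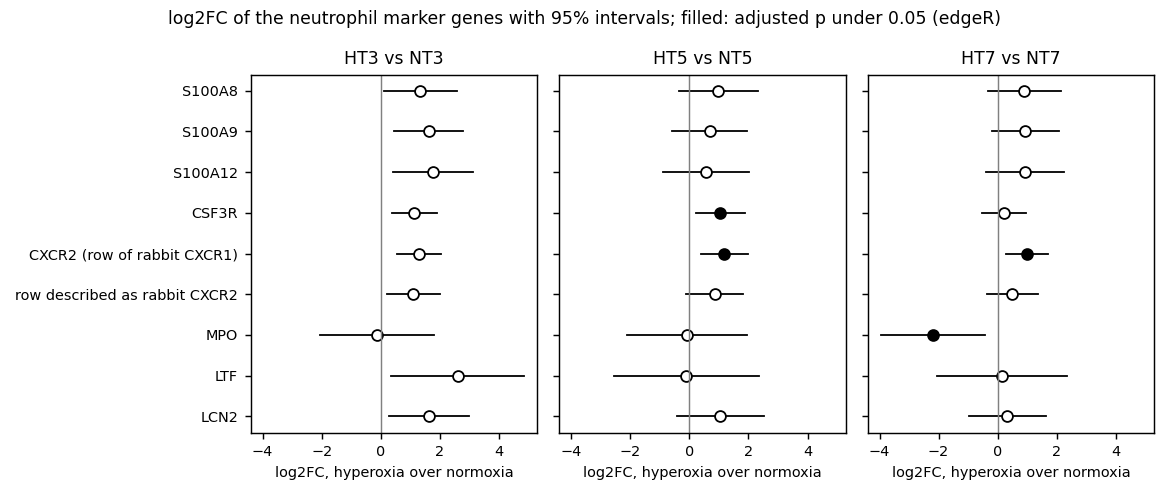
Log2FC of hyperoxia over normoxia for each neutrophil marker gene on days 3, 5 and 7 (x axis, log2 scale), with 95% intervals from the edgeR fit and filled points where the adjusted p was under 0.05. On day 3 all points but that of MPO lie right of 0 without passing, CSF3R and the CXCR1-named row are filled on day 5, and the CXCR1-named row and MPO, on opposite sides of 0, are filled on day 7.

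S100A8 and S100A9 pair up as calprotectin, the main cytosolic protein of neutrophils, which binds zinc and calcium and signals through TLR4 and the receptor AGER. S100A9 had 535, 677 and 499 CPM in the 3 HT3 lungs and 302, 110 and 146 CPM in the 3 NT3 lungs, so that the ranges did not meet. The means were 570 ± 94.0 (SD, n = 3) and 186 ± 102 CPM (SD, n = 3), a log2FC of 1.62 (SE 0.55, adjusted p = 0.169 in edgeR). S100A8 had 453, 441 and 248 CPM in HT3 and 271, 88.6 and 91.8 CPM in NT3. Here NT3 replicate 1 lay above HT3 replicate 3 and the ranges overlapped, with a log2FC of 1.34 (SE 0.58, edgeR adjusted p = 0.287). S100A12, a related protein that is secreted by neutrophils and also binds AGER, had 348, 421 and 243 CPM in HT3 against 178, 36.9 and 80.1 CPM in NT3, which did not overlap. Its log2FC was 1.78 (SE 0.64, edgeR adjusted p = 0.193). NT3 replicate 1 was the highest normoxic lung of day 3 for all 3 S100 genes, and without it their log2FC was 2.08 for S100A8, 2.15 for S100A9 and 2.53 for S100A12, still short of the threshold. Without NT3 replicate 2 the values were 1.07, 1.35 and 1.38.

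On day 5 the hyperoxic and normoxic ranges of all 3 S100 genes overlapped. S100A9 had 350 and 262 CPM in the 2 HT5 lungs and 300, 51.9 and 219 CPM in NT5, S100A8 had 317 and 191 CPM against 206, 39.6 and 141, and S100A12 had 114 and 126 CPM against 88.5, 17.6 and 136. NT5 replicate 2 was the lowest of all 17 lungs for each of the 3 genes. The log2FC values of 0.68 for S100A9, 0.98 for S100A8 and 0.57 for S100A12 did not pass (edgeR adjusted p = 0.397, 0.249 and 0.556). Without NT5 replicate 2 they were 0.25, 0.56 and 0.11. In the other direction, the value was 1.18 for S100A9 and 1.49 for S100A8 without NT5 replicate 1, and 1.17 for S100A12 without NT5 replicate 3.

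On day 7 one hyperoxic lung stood far above the others. HT7 replicate 1 had 1507 CPM of S100A9, 1018 CPM of S100A8 and 708 CPM of S100A12, the highest level of each gene in the series. The other HT7 lungs had 410 and 612 CPM of S100A9, 343 and 326 CPM of S100A8 and 186 and 361 CPM of S100A12. The NT7 lungs were close together, with 468, 428 and 429 CPM of S100A9, 353, 319 and 232 CPM of S100A8 and 187, 206 and 267 CPM of S100A12. The ranges overlapped for all 3 genes, and the log2FC values of 0.93, 0.90 and 0.93 for S100A9, S100A8 and S100A12 did not pass (edgeR adjusted p = 0.168, 0.213 and 0.235). Without HT7 replicate 1 they were 0.21, 0.15 and 0.32. The ratio of S100A8 to S100A9 counts, which is not corrected for length and can be compared only between samples, was 0.681 ± 0.152 (SD, n = 3) in HT7 and 0.680 ± 0.121 (SD, n = 3) in NT7, and lay between 0.497 and 0.905 in all 17 lungs.

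**Figure D2:**
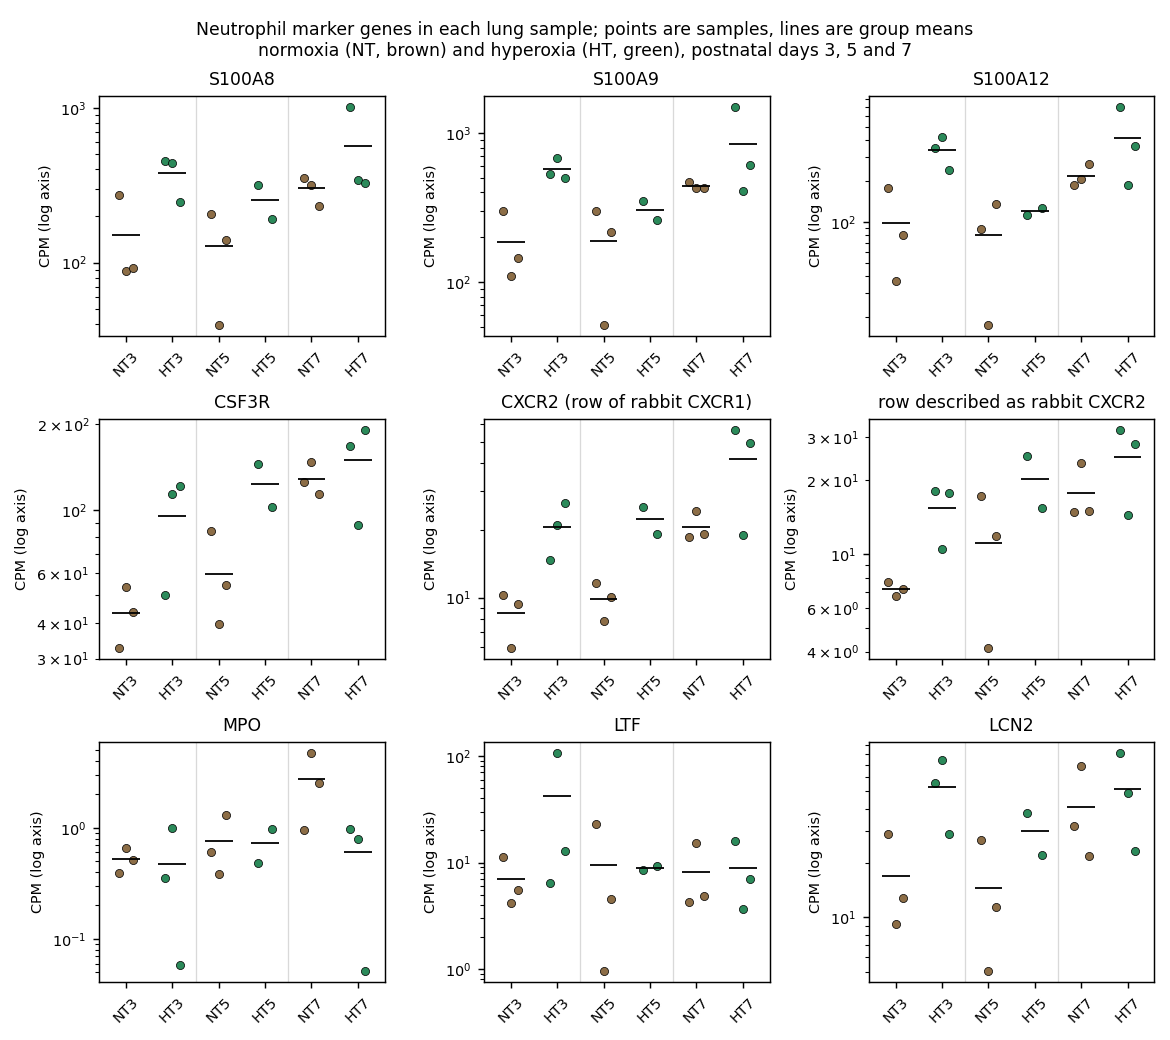
CPM of each neutrophil marker gene in every lung (y axis, log scale, 1 point per sample) by group, with a line at the group's arithmetic mean and both rows that carry the human name CXCR2. The HT3 points of S100A9 and S100A12 lie above the NT3 points, HT7 replicate 1 is the highest S100 point, NT5 replicate 2 the lowest, and LTF in HT3 is spread from 6.39 to 107 CPM.

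CSF3R, the receptor through which granulocyte colony-stimulating factor keeps neutrophils alive and drives their output, was higher in hyperoxia on day 5. The HT5 lungs had 145 and 102 CPM and the NT5 lungs 84.4, 39.7 and 54.5 CPM, without overlap. The log2FC was 1.05 (SE 0.38, edgeR adjusted p = 0.0496), just inside the threshold. The call was lost when HT5 replicate 1, HT5 replicate 2, NT5 replicate 2 or NT5 replicate 3 was left out, with a log2FC between 0.78 and 1.39 and an adjusted p between 0.0208 and 0.227 over the 5 fits. It was also lost without a count filter, with 1 row per locus (adjusted p = 0.0505 in both) and in a fit of only the groups compared (0.0609). On day 3 CSF3R had 50.2, 114 and 122 CPM in HT3 and 32.7, 53.6 and 43.6 CPM in NT3. HT3 replicate 1 fell inside the normoxic range, and the log2FC of 1.14 (SE 0.35) had an adjusted p of 0.140 in edgeR and 0.0275 in DESeq2. On day 7 CSF3R was at 168, 88.7 and 191 CPM in HT7 and 125, 147 and 114 CPM in NT7. These ranges overlapped, the log2FC was 0.22 (95% interval -0.52 to 0.96) and the edgeR adjusted p was 0.632.

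The chemokine receptor genes sense CXCL8 and its kin and steer neutrophils to the source. The CXCR1-named row had 14.7, 21.1 and 26.6 CPM in HT3 and 10.3, 5.95 and 9.39 CPM in NT3, without overlap, with a log2FC of 1.29 (SE 0.34) and an adjusted p of 0.0909 in edgeR and 0.00942 in DESeq2. On day 5 it was higher in hyperoxia, with 25.5 and 19.3 CPM in HT5 against 11.6, 7.89 and 10.1 CPM in NT5. Both HT5 levels exceeded all NT5 levels, and the log2FC was 1.18 (SE 0.37, edgeR adjusted p = 0.0264). This call was lost when HT5 replicate 1 or 2, or NT5 replicate 2 or 3, was left out, with an adjusted p of up to 0.1254, and with the replicate number as a block (0.0751). On day 7 it had 56.5, 19.1 and 49.1 CPM in HT7 and 18.7, 24.4 and 19.3 CPM in NT7. HT7 replicate 2 lay within the normoxic range while the other HT7 lungs were above it, and the log2FC was 0.9995 (SE 0.33, edgeR adjusted p = 0.0228). That call was lost without HT7 replicate 1 or 3 or NT7 replicate 1 or 3, with an adjusted p of up to 0.119, with the replicate block (0.0743) and in a fit of only the groups compared (0.054). Without HT7 replicate 2 the log2FC was 1.35. It was the one member that passed in the same direction on both days 5 and 7.

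The CXCR2-described row did not pass on any day. It had 18.1, 10.5 and 17.7 CPM in HT3 against 7.67, 6.75 and 7.23 CPM in NT3, 25.1 and 15.4 CPM in HT5 against 17.2, 4.14 and 11.8 CPM in NT5, and 32.1, 14.5 and 28.1 CPM in HT7 against 14.8, 23.5 and 15.0 CPM in NT7. The HT3 lungs were all above the NT3 lungs, and the ranges overlapped on days 5 and 7. Its log2FC over the 3 days was 1.10, 0.87 and 0.49 (edgeR adjusted p = 0.223, 0.155 and 0.342). The 95% intervals of both rows overlapped on each day, and the difference between the rows was not tested. With this row in place of the other, 1 of 8 genes passed on day 5 and 1 on day 7.

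MPO makes hypochlorous acid from hydrogen peroxide and chloride in the azurophil granule, and its mRNA marks neutrophil precursors. It was scarce in every lung, with 1 to 70 counts a library, and HT3 replicate 3 and HT7 replicate 3 had 1 count each. MPO fell on day 7 in the test. NT7 held 0.957, 4.72 and 2.55 CPM (14, 70 and 41 counts) and HT7 held 0.981, 0.786 and 0.0512 CPM (17, 13 and 1 counts). The ranges overlapped, since HT7 replicate 1 was slightly above NT7 replicate 1. The log2FC was -2.19 (SE 0.83, 95% interval -3.96 to -0.42, edgeR adjusted p = 0.0402). The call was lost without HT7 replicate 2, HT7 replicate 3, NT7 replicate 2 or NT7 replicate 3, with log2FC values between -2.74 and -1.55 and adjusted p between 0.0229 and 0.182 over the 6 fits. It was also lost with the replicate number as a block (adjusted p = 0.0583) and in a fit of only the groups compared (0.0667). The NT7 mean of 2.74 ± 1.89 CPM (SD, n = 3) was the highest of the 6 groups, and the other 5 means lay between 0.470 and 0.760 CPM, with NT7 overlapping the next group. On day 3 MPO had 0.355, 0.997 and 0.0584 CPM in HT3 and 0.392, 0.655 and 0.512 CPM in NT3, and on day 5 it had 0.481 and 0.974 CPM in HT5 and 0.606, 0.382 and 1.29 CPM in NT5. The log2FC values of -0.14 and -0.06 had 95% intervals of -2.07 to 1.80 and -2.09 to 1.97, both wide at these counts.

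LTF, the iron-binding protein of the specific granule, had 6.39, 107 and 12.95 CPM in HT3 and 11.2, 4.13 and 5.58 CPM in NT3. One lung, HT3 replicate 2, carried the difference. The log2FC was 2.60 (SE 1.06, edgeR adjusted p = 0.251) and 0.48 without that library. The same library had the most skeletal and heart muscle mRNA of the series, with 301 CPM summed over 7 of 10 listed genes beside 8.04 and 39.9 CPM in the other HT3 lungs. HT5 replicate 1 also had 284 CPM of muscle genes and had an LTF level of 8.46 CPM. The part of muscle mRNA in the LTF levels was not tested. On days 5 and 7 LTF was at 8.46 and 9.25 CPM in HT5 against 23.0, 0.955 and 4.496 CPM in NT5, and at 15.8, 3.63 and 7.02 CPM in HT7 against 4.24, 15.2 and 4.80 CPM in NT7. The HT ranges lay inside or across the NT ranges, and the log2FC values of -0.10 and 0.13 did not pass (edgeR adjusted p = 0.958 and 0.927).

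LCN2 seizes bacterial siderophores and so withholds iron from bacteria. It had 55.8, 74.1 and 28.8 CPM in HT3 and 29.0, 9.17 and 12.8 CPM in NT3. HT3 replicate 3 lay just below NT3 replicate 1, and the log2FC was 1.64 (SE 0.63, edgeR adjusted p = 0.225). On day 5 the levels were 37.7 and 22.1 CPM in HT5 and 26.9, 5.03 and 11.4 CPM in NT5, with a log2FC of 1.05 (edgeR adjusted p = 0.261), and on day 7 they were 81.5, 48.7 and 23.2 CPM in HT7 and 32.1, 68.5 and 21.8 CPM in NT7, with a log2FC of 0.32 (edgeR adjusted p = 0.689). The ranges overlapped on each day. Airway secretory and ciliated cell genes, 10 of 11 listed genes including TPPP3 and SCGB3A2, summed to 253 to 324 CPM in HT3 and 308 to 413 CPM in NT3, and to 192 to 304 CPM in HT5 and 341 to 373 CPM in NT5. On day 7 they summed to 346 to 468 CPM in HT7 and 397 to 472 CPM in NT7, which overlapped. There 2 of 10 passed upward and 3 downward, beside 23.7% of all genes each way. Genes shared by all epithelia, 3 tested, summed to 365 to 439 CPM in HT3 and 352 to 379 CPM in NT3, to 509 to 588 CPM in HT5 and 312 to 497 CPM in NT5, and to 722 to 878 CPM in HT7 and 321 to 416 CPM in NT7, where 3 of 3 passed upward as did 23.7% of all genes. On day 5 the airway and the shared epithelial sums each separated without overlap, in opposite directions. LCN2 and LTF can also be made by epithelium, and the part of epithelial mRNA in their levels was not tested.

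Set in order of their group means, HT7 was the highest group for S100A8 (562 ± 395 CPM), S100A9 (843 ± 584), S100A12 (418 ± 266), CSF3R (149 ± 53.8) and the CXCR1-named row (41.6 ± 19.9; SD, n = 3 throughout). HT3 was the highest for LTF (42.1 ± 56.2 CPM) and LCN2 (52.9 ± 22.8 CPM, with HT7 next at 51.1 ± 29.2 CPM; SD, n = 3 throughout). For the 3 S100 genes this place rested on HT7 replicate 1. Without it the log2FC of HT7 over HT3 was -0.19 for S100A8, -0.16 for S100A9 and -0.30 for S100A12. Neighbours in these orders mostly overlapped. For S100A9 the samples of HT3 all lay above those of NT7, which lay above those of HT5 (306 ± 62.5 CPM, SD, n = 2). For S100A12 and the CXCR1-named row, NT7 lay above the next group down, HT5 for the first and NT5 for the second. NT3 or NT5 had the lowest mean for 7 of 8 members, and HT3 for MPO.

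Within hyperoxia, the CXCR1-named row rose from day 3 to day 7, from 20.8 ± 5.95 to 41.6 ± 19.9 CPM (SD, n = 3 each), with a log2FC of 0.9982 (edgeR adjusted p = 0.0245), and it was the one member of 8 to pass by edgeR, where 44.3% of all genes did, and by DESeq2, where 46.3% did. At an unadjusted p under 0.05, 2 of 8 passed (the other was LTF, log2FC -2.25), where 52.3% of all genes did. The LTF value rested on HT3 replicate 2, without which it was -0.13 (adjusted p = 0.928). It passed without HT3 replicate 1 (adjusted p = 0.0461). The call of the CXCR1-named row was lost without HT3 replicate 1 or 2 or HT7 replicate 1 or 3, with an adjusted p of up to 0.1255, and in a fit of only the groups compared (0.0818). Without HT7 replicate 2 CSF3R passed as well (log2FC 0.92, adjusted p = 0.0396). From day 3 to day 5, 0 of 8 members passed by edgeR or DESeq2 and 0 had an unadjusted p under 0.05, where 22.8% of all genes passed by edgeR, 26.4% by DESeq2 and 36.4% without adjustment. The 2 HT5 lungs lay below all 3 HT3 lungs for S100A12, at 120 ± 8.82 (SD, n = 2) against 337 ± 89.6 CPM (SD, n = 3), with a log2FC of -1.49 (edgeR adjusted p = 0.153). From day 5 to day 7, 0 of 8 passed by either tool, and 3 of 8 (S100A9, S100A12 and the CXCR1-named row) had an unadjusted p under 0.05. Of all genes 1.45% passed by edgeR, 5.36% by DESeq2 and 18.6% without adjustment.

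Within normoxia, 0 of the 13142 genes passed between any 2 days by edgeR. From day 3 to day 7 all 8 had a positive log2FC, with a median of 1.26 against 0.0067 for all genes, and 4 of 8 had an unadjusted p under 0.05, where 6.27% of all genes did. CSF3R went from 43.3 ± 10.5 to 129 ± 16.8 CPM (SD, n = 3 each), without overlap. Its log2FC of 1.57 (SE 0.36) had an unadjusted p of 0.000536 and an adjusted p of 0.310 in edgeR, and passed in DESeq2 (adjusted p = 0.00807), where 0.297% of all genes passed. The CXCR1-named row, at 8.53 ± 2.28 CPM in NT3 and 20.8 ± 3.09 CPM in NT7 (SD, n = 3 each), had a log2FC of 1.29 with an edgeR adjusted p of 0.483. From day 5 to day 7, 6 of 8 members had an unadjusted p under 0.05, where 4.45% of all genes did, and 0 passed by edgeR or by DESeq2, which called 0.00761% of all genes and gave no adjusted p for 3 of the members. From day 3 to day 5, 0 of 8 passed by either tool (0.586% of all genes by DESeq2) and 0 had an unadjusted p under 0.05 (5.64% of all genes).

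The difference between days was tested directly. The log2FC of day 7 minus that of day 3 was negative for all 8 members, with a median of -0.89, but 0 of 8 passed by edgeR or DESeq2 and 0 had an unadjusted p under 0.05, where 20.5%, 24.4% and 34.9% of all genes were past these lines. For S100A9 the difference was -0.68 (95% interval -2.29 to 0.93) and for CSF3R -0.92 (95% interval -1.97 to 0.13). For day 5 minus day 3, 0 of 8 passed by either tool (1.46% of all genes by edgeR and 6.8% by DESeq2) and 0 had an unadjusted p under 0.05 (20.3% of all genes).

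Inside a group, some lungs were high or low for most members at once. HT7 replicate 1 and HT3 replicate 2 were above their own group's mean log2 CPM for 8 of 8 members, and NT5 replicate 2 for 0 of 8. NT5 replicate 1 was above for 7 of 8, and NT3 replicate 1 and NT7 replicate 2 for 6 of 8 each. The median deviation over the 8 members was 0.98 on the log2 scale in HT7 replicate 1 and -1.29 in NT5 replicate 2. With every locus counted once, the 8 genes together took from 0.0180% of a library's counts in NT5 replicate 2 to 0.389% in HT7 replicate 1.

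Across the 17 deviations from group means, 26 of the 28 pairs of members correlated positively, with a median Pearson r of 0.57 and a range from -0.20 to 0.94. These points share a library and its depth, and the values are descriptions without a test. The closest pair was S100A8 and S100A9 (r = 0.94, Spearman rho = 0.92, and r = 0.90 without the 2 farthest lungs), followed by S100A9 and S100A12 (r = 0.92) and by S100A8 and LCN2 (r = 0.87). CSF3R followed the CXCR1-named row (r = 0.67) and LTF (r = 0.62) more than it followed S100A8 (r = 0.19) or S100A12 (r = 0.19). MPO stood apart, with 5 of its 7 correlations positive and a median of 0.28. It had only 1 to 70 counts a library, and the part of such low counts in this was not tested. All 21 pairs without MPO had a positive Pearson r, with a median of 0.63. By Spearman's rho, and by r without the 2 farthest lungs, 20 of the 21 were positive. The exception in both was S100A8 and CSF3R, with a rho of -0.02 and an r of -0.04.

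**Figure D3:**
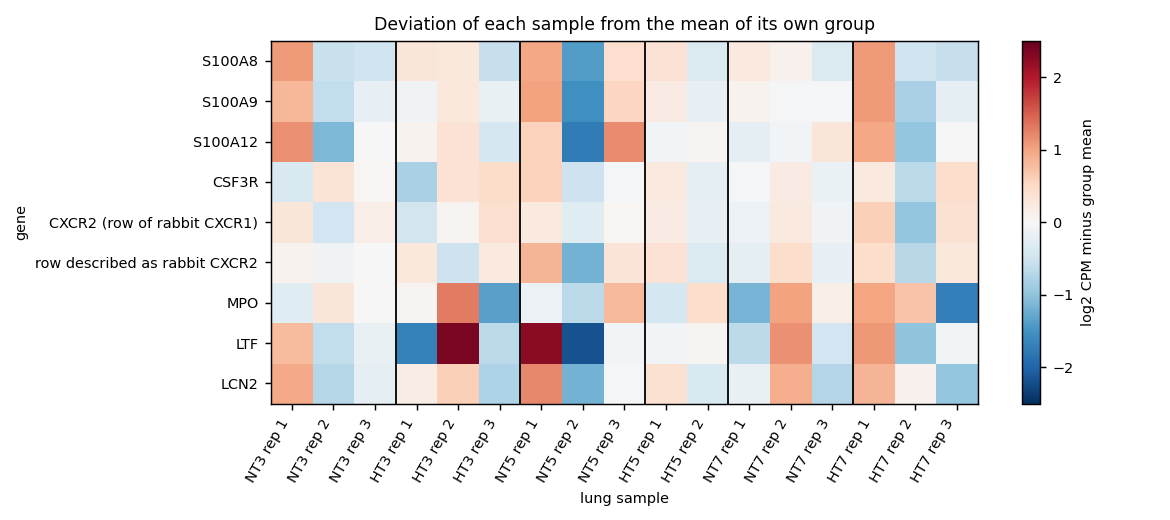
Deviation of each lung (x axis, by group and replicate) from the mean of its own group for each neutrophil marker gene (y axis), as colour in log2 CPM units, red above and blue below. The columns of HT7 replicate 1 and HT3 replicate 2 are red and that of NT5 replicate 2 blue for the 8 members. The MPO line, from 1 to 70 counts a library, often differs from the others.

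Among all tested genes at other loci, the 2 with the deviations most like those of each member were sought over the same 17 lungs. For S100A9 they were MS4A4A (r = 0.96, rho = 0.84, and r = 0.94 without the 2 farthest lungs) and S100A8. For S100A8 they were S100A9 and SERPINB1 (r = 0.89). For S100A12 they were TCN1 (r = 0.96, rho = 0.93, and r = 0.93 without the 2 farthest lungs), which encodes the vitamin B12-binding haptocorrin of the specific granule, and S100A9. LCN2 was close to S100A8 (r = 0.87). The CXCR1-named row was most like PTX3 (r = 0.88) and CADM3 (r = 0.87), the CXCR2-described row like ENDOV (r = 0.93) and IDO2 (r = 0.87), and CSF3R like PTCD3 (r = 0.87) and GEMIN8 (r = 0.87). LTF was most like OSBPL2 (r = 0.91) and PLCD3 (r = 0.88), and MPO like NPY1R (r = 0.92) and ZSCAN30 (r = 0.87). These are the highest values of a search over all genes with a mean log2 CPM of at least 0, with 17 points each, and carry no test.

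Other granule genes were read from a list of 16, of which 6 were tested. On day 3 and on day 5, 0 of 6 passed by edgeR or DESeq2, and on day 7, 1 rose and 1 fell. Of all genes 1.03%, 31.3% and 47.4% passed in either direction by edgeR on the 3 days. On day 3 all 6 had a positive log2FC, with a median of 1.44. CAMP, the precursor of the antimicrobial peptide cathelicidin, was at 38.9, 85.7 and 19.3 CPM in HT3 and 16.2, 5.19 and 5.86 CPM in NT3. PGLYRP1, which binds bacterial peptidoglycan, was at 80.7, 91.1 and 101 CPM in HT3 and 49.7, 14.5 and 25.7 CPM in NT3. Neither gene's HT3 range met its NT3 range, yet their log2FC values of 2.40 and 1.60 had edgeR adjusted p of 0.177 and 0.133. CRISP3 (log2FC 1.29), BPI (0.99), MMP9 (1.60) and LYZ (0.37) did not pass either. Without HT3 replicate 2 the log2FC of CAMP was 1.68 and that of BPI 0.31. Without HT3 replicate 3 that of MMP9 was 1.03 and that of LYZ 0.0061. On day 7, MMP9, the gelatinase of the tertiary granule that macrophages also make, rose from 24.1, 20.4 and 14.1 CPM in NT7 to 68.0, 81.2 and 79.0 CPM in HT7, without overlap. Its log2FC was 1.96 (SE 0.69, edgeR adjusted p = 0.0284), and the call was lost without HT7 replicate 3 or any 1 of the 3 NT7 lungs, with an adjusted p of up to 0.0937. LYZ, the lysozyme of neutrophils, macrophages and alveolar cells, fell from 239, 195 and 190 CPM in NT7 to 103, 128 and 103 CPM in HT7, without overlap (log2FC -0.91, SE 0.30, edgeR adjusted p = 0.0227). That call was lost without HT7 replicate 1, HT7 replicate 3 or NT7 replicate 1, with an adjusted p of up to 0.074. On day 7 PGLYRP1, BPI, CRISP3 and CAMP had log2FC values of 0.58, 0.17, -0.10 and 0.03 and did not pass.

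Of 30 further genes for neutrophil receptors, signalling and the oxidase, 23 were tested. On day 3, 1 rose and 0 fell, on day 5 again 1 rose and 0 fell, and on day 7, 2 rose and 3 fell. These 1, 1 and 5 of 23 stand beside 1.03%, 31.3% and 47.4% of all genes that passed in either direction on the 3 days. The gene that rose on each day was IL1R2, the decoy receptor of interleukin 1, which the study had itself picked from these samples, so it is not independent evidence of a direction. On the 3 days its edgeR adjusted p was 0.0429, 0.0376 and 0.000926. With the replicate number as a block the first of these was 0.0717, and leaving out any 1 lung of day 3 except HT3 replicate 3 also ended that call, with an adjusted p of up to 0.195. The day 5 call was lost without HT5 replicate 1 or 2 or NT5 replicate 2 or 3, with an adjusted p of up to 0.151, while the day 7 call held in all 6 such fits. TREM1, a receptor that amplifies the inflammatory response of neutrophils and monocytes, rose on day 7 from 14.6, 12.9 and 11.3 CPM in NT7 to 64.9, 20.6 and 38.0 CPM in HT7. The ranges did not overlap, and the log2FC was 1.67 (SE 0.45, edgeR adjusted p = 0.00703), past the threshold in each of the 6 fits without 1 lung. HT7 replicate 1 was the highest lung for TREM1, as it was for the S100 genes. ALOX5, the lipoxygenase that starts leukotriene synthesis, the kinase FGR and the sorting receptor SORL1 fell on day 7 (log2FC -0.78, -0.64 and -0.48, edgeR adjusted p = 0.0194, 0.00416 and 0.0295). The ALOX5 call was lost without HT7 replicate 3 or NT7 replicate 2, and the SORL1 call without any 1 lung of day 7 except NT7 replicate 3, with an adjusted p of up to 0.109. FPR2, a receptor for formyl peptides, did not pass at a log2FC of 1.71, 1.41 and 1.36 on the 3 days, and CEBPE, the transcription factor of late granule genes, had 1.76, -0.93 and -0.16 and did not pass.

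The ligands and the vessel-wall genes of neutrophil recruitment come next. Of 22 listed ligands and vascular adhesion genes, 15 were tested, of which 0 passed by edgeR on day 3 (DESeq2 called VCAM1), 5 rose and 0 fell on day 5, and 7 rose and 1 fell on day 7. Of all genes 1.03%, 31.3% and 47.4% passed in either direction on the 3 days. CSF3, the ligand of CSF3R, had 920, 30 and 595 counts in HT7 and 9, 1 and 6 counts in NT7, or 53.1, 1.81 and 30.5 CPM against 0.615, 0.0675 and 0.374 CPM. All HT7 lungs were above all NT7 lungs, and the log2FC was 6.31 (SE 1.01, edgeR adjusted p = 0.000161), between 5.50 and 6.94 without any 1 lung. On day 5 it had 20 and 20 counts in HT5 and 4, 3 and 4 in NT5, which did not pass (edgeR adjusted p = 0.121), and on day 3 it had 1, 8 and 13 counts in HT3 and 1, 0 and 1 in NT3, too few for a fold.

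CXCL8, the chief neutrophil chemokine, was at 423, 245 and 342 CPM in HT7 and 69.2, 9.17 and 22.6 CPM in NT7, without overlap, a log2FC of 3.32 (SE 0.96, edgeR adjusted p = 0.0103). This log2FC was 2.88 without NT7 replicate 2 and 4.40 without NT7 replicate 1. On day 5 CXCL8 was at 223 and 181 CPM in HT5 and 48.5, 7.96 and 7.80 CPM in NT5, a log2FC of 3.24 (SE 1.01, edgeR adjusted p = 0.0245). The day 5 log2FC was 2.84 without NT5 replicate 3 and 4.68 without NT5 replicate 1. Its call was lost without HT5 replicate 1 or 2 or NT5 replicate 2 or 3. On day 3 CXCL8 was at 25.0, 43.5 and 278 CPM in HT3 and 8.63, 11.1 and 28.1 CPM in NT3. One lung, HT3 replicate 3, was far above the rest, and the log2FC of 2.86 (edgeR adjusted p = 0.164) was 1.11 without it. HT3 replicate 3 was the lowest HT3 lung for S100A8, S100A9, S100A12 and LCN2 and the highest for CSF3R and the CXCR1-named row. IL1B, the cytokine that switches on CXCL8 and vascular adhesion genes, rose on day 5 (log2FC 2.37, SE 0.56, edgeR adjusted p = 0.00607) and on day 7 (log2FC 1.53, SE 0.51, edgeR adjusted p = 0.0225). The first call was lost without HT5 replicate 1 (adjusted p of up to 0.0677) and the second without HT7 replicate 1 or NT7 replicate 2 or 3 (adjusted p of up to 0.0928).

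On the vessel side, SELP, the P-selectin on which leukocytes roll, was at 62.9, 29.1 and 104 CPM in HT7 and 12.8, 3.85 and 6.79 CPM in NT7, and at 28.3 and 23.1 CPM in HT5 and 3.27, 2.10 and 2.43 CPM in NT5. Neither pair of ranges overlapped. The log2FC was 3.30 on day 5 (SE 0.57, edgeR adjusted p = 0.000944) and 3.07 on day 7 (SE 0.52, edgeR adjusted p = 0.00025), and both calls held without any 1 lung. ICAM1, which integrins of adherent neutrophils grip, rose by log2FC 1.01 on day 5 and 0.89 on day 7 (edgeR adjusted p = 0.00238 and 0.00129), again in every fit without 1 lung. VCAM1, which binds lymphocytes and monocytes more than neutrophils, was at 228, 253 and 267 CPM in HT3 and 130, 120 and 138 CPM in NT3, without overlap, with a log2FC of 0.95 (adjusted p = 0.058 in edgeR and 0.0029 in DESeq2). It rose on day 5 (log2FC 0.70, edgeR adjusted p = 0.042) but not without HT5 replicate 2, NT5 replicate 2 or NT5 replicate 3, and had a log2FC of 0.10 on day 7. IL6 rose on day 7 (log2FC 4.28, SE 1.17, edgeR adjusted p = 0.00751) and not without HT7 replicate 1 (log2FC 2.63, adjusted p of up to 0.0745). CXCL5 was the other ligand that rose on day 7 (log2FC 2.80, edgeR adjusted p = 0.0389), named after its values were seen. CXCR4, whose ligand CXCL12 holds neutrophils in bone marrow, fell on day 7 (log2FC -1.03, edgeR adjusted p = 0.0211), a call lost without HT7 replicate 1 or 3 or NT7 replicate 2 or 3 with an adjusted p of up to 0.0946. Endothelial marker genes, 5 of 6 listed and led by PECAM1, KDR and CDH5, summed to 818 to 1193 CPM in HT7 and 2009 to 2344 CPM in NT7, opposite in direction to SELP and ICAM1.

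**Figure D4:**
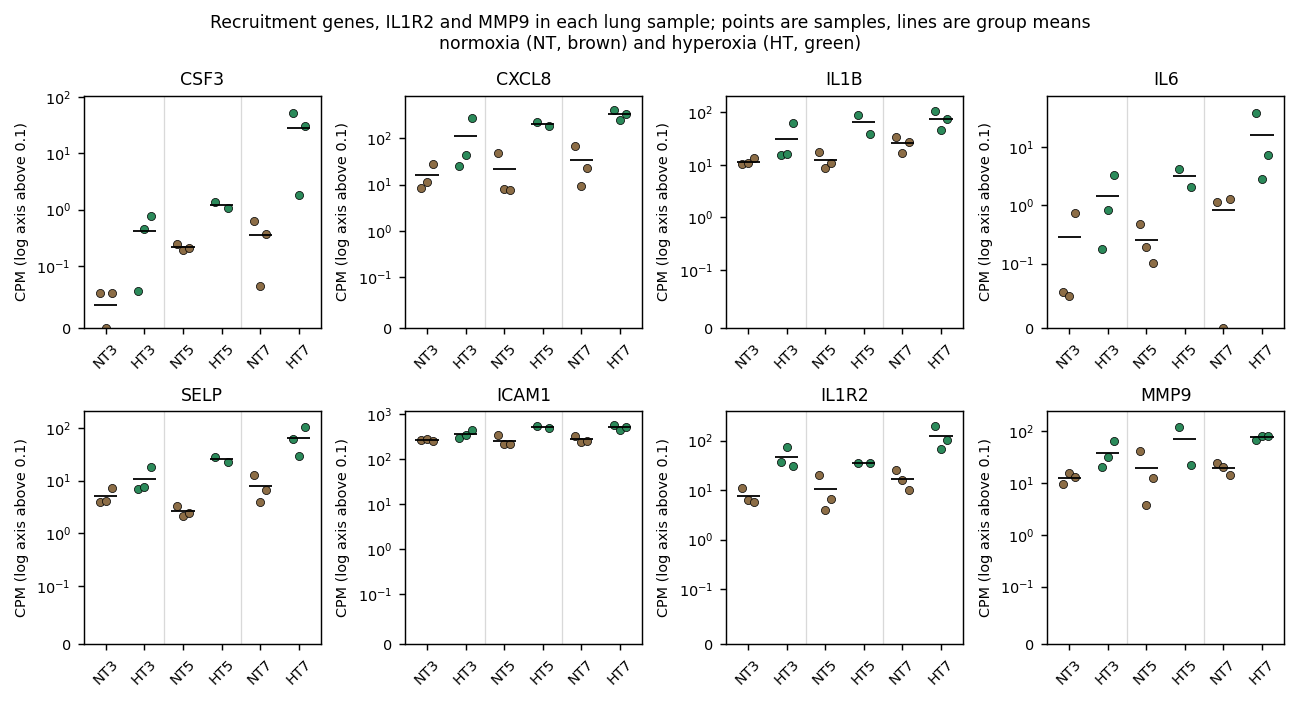
CPM of CSF3, CXCL8, IL1B, IL6, SELP, ICAM1, IL1R2 and MMP9 in every lung (y axis, log scale above 0.1 and linear below, 1 point per sample) by group, with a line at the arithmetic mean. In HT7 all 3 points lie above the NT7 points in each panel, as they did for 27.3% of all genes tested, and CSF3 in HT7 spans 1.81 to 53.1 CPM. The panels are a selection. CXCR4 and VCAM1, whose day 7 ranges overlapped, are not shown.

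The 7 listed genes that receive the signals of S100A8 and S100A9 or take up iron-laden LCN2 were all tested, and 0 passed on day 3 by edgeR or DESeq2. On days 5 and 7, 1 rose and 3 fell, 4 of 7 where 31.3% and 47.4% of all genes passed in either direction. MYD88, the adaptor of Toll-like receptors, rose by log2FC 0.50 on day 5 and 0.67 on day 7 (edgeR adjusted p = 0.0251 and 0.00138). AGER, a receptor for S100 proteins that is foremost a marker of alveolar type 1 cells, fell by 1.27 and 2.04 on the log2 scale on days 5 and 7 (edgeR adjusted p = 0.00804 and 5.54e-05), from 4110 ± 569 CPM in NT7 to 1001 ± 367 CPM in HT7 (SD, n = 3 each). CD36, a scavenger receptor of macrophages and capillary endothelium, fell by 1.62 and 2.01, and SLC22A17, the receptor of LCN2, fell by 0.73 and 1.06 on the log2 scale. On day 5 the AGER, CD36 and SLC22A17 calls were lost without HT5 replicate 2, with adjusted p of up to 0.1247, 0.0759 and 0.0687, and the MYD88 call without HT5 replicate 2 or NT5 replicate 2 or 3, with an adjusted p of up to 0.193. All 4 day 7 calls held in each fit without 1 lung. TLR4, the main receptor of calprotectin, TLR2 and LRP2 did not pass on any day.

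Marker genes of other white cells and of blood are given beside these results, and their part in them was not tested. Macrophage and monocyte genes, 13 of 14 listed and led by CD68, MRC1 and CSF1R, summed to 1128 to 1608 CPM in HT3 against 1017 to 1137 CPM in NT3, 1844 to 2102 CPM in HT5 against 936 to 1852 CPM in NT5, and 2068 to 2693 CPM in HT7 against 1264 to 1513 CPM in NT7. On day 7 the log2FC was positive for 7 of the 13, and 3 passed upward (CD68, CD163 and MSR1) and 2 downward (MARCO and CX3CR1), where 47.4% of all genes passed in either direction. CD68 made up most of the HT7 sum, at 1597 ± 410 CPM in HT7 and 688 ± 84.98 CPM in NT7 (SD, n = 3 each). The other 12 genes, separated after the values were seen, summed to 540 to 889 CPM in HT7 and 599 to 745 CPM in NT7 and overlapped. The highest macrophage sum was that of HT7 replicate 1, the lung with the most S100 mRNA. The sum of the 8 neutrophil genes is for the most part that of the S100 genes, which held 66.9% to 91.3% of the members' counts in each library. It came to 1180 to 1856 CPM in HT3 against 309 to 835 CPM in NT3, which did not meet, to 733 to 997 CPM in HT5 against 163 to 741 CPM in NT5, and to 1100 to 3555 CPM in HT7 against 1090 to 1213 CPM in NT7. The macrophage ranges thus overlapped on day 3 and on day 5 but not on day 7, where CD68 set the sums apart, and the neutrophil ranges on day 5 and day 7 but not on day 3. Erythroid genes, a sign of blood in the lung (4 of 8 listed, led by ALAS2, with the globin genes not analysed here), summed to 111 to 182 CPM in HT3 and 91.8 to 198 CPM in NT3, and to 49.7 to 69.9 CPM in HT7 and 123 to 211 CPM in NT7. Of these, 3 of 4 passed downward on day 7, where 23.7% of all genes did. On day 5 the erythroid sums were 70.1 to 81.5 CPM in HT5 and 97.97 to 180 CPM in NT5 (1 of 4 passed downward). Lymphocyte genes, 9 of 10 listed, summed to 4.02 to 4.38 CPM in HT3 and 4.48 to 8.42 CPM in NT3, and to 2.05 to 3.92 CPM in HT7 and 8.82 to 14.6 CPM in NT7. Of the 8 tested, 6 passed downward on day 7, where 23.7% of all genes did. The ranges of these genes overlapped on day 5, and their sums were low, at 18.3 CPM at most. Genes of eosinophils, basophils and mast cells, 6 of 9 listed and led by KIT, summed to 16.3 to 26.4 CPM in HT7 and 43.5 to 102 CPM in NT7, and to 14.8 to 28.2 CPM in HT5 and 57.98 to 90.1 CPM in NT5, with 1 of 6 passing downward on each of these days. The log2FC was positive for 2 of 6 on day 7 and 1 of 6 on day 5, and no sum without KIT was made. Endothelial genes summed to 1121 to 1167 CPM in HT5 and 1812 to 2248 CPM in NT5. On day 5, 3 of 5 passed downward and 1 upward, where 31.3% of all genes passed in either direction. Genes of cycling cells, all 6 listed, summed to 60.2 to 74.5 CPM in HT3 and 101 to 141 CPM in NT3, to 81.1 to 249 CPM in HT5 and 411 to 497 CPM in NT5, and to 116 to 306 CPM in HT7 and 97.6 to 424 CPM in NT7. These ranges overlapped on day 7 only, and 4 of 6 passed downward on day 5, where 31.3% of all genes passed in either direction. On day 5 the erythroid, endothelial, cycling and eosinophil, basophil and mast cell sums of HT5 thus lay below those of NT5 without overlap. So did the airway sums (2 of 10 passed downward), while those of genes shared by all epithelia lay above (1 of 3 passed upward). Of the muscle genes 3 of 6 passed upward, but their sums overlapped. They were 284 CPM in HT5 replicate 1, 6.385 CPM in HT5 replicate 2 and 7.45 to 16.5 CPM in NT5. Day 5 was also the day when CSF3R and the CXCR1-named row passed upward, and the part of these marker genes in those calls was not tested.

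**Figure D5:**
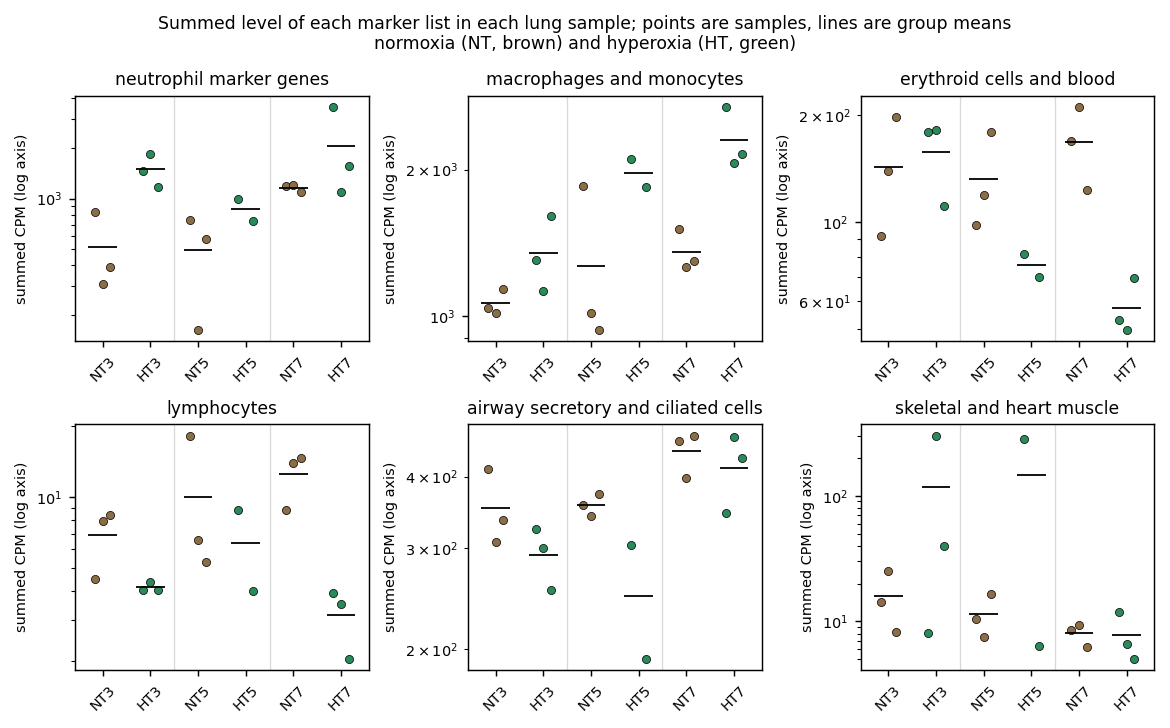
Summed CPM of the 8 neutrophil marker genes and of 5 marker lists of other cells in every lung (y axis, log scale, 1 point per sample) by group, with a line at the arithmetic mean. The neutrophil sums of HT3 lie above those of NT3 and overlap on day 7, where the macrophage sums, most of which is CD68, are higher and the erythroid and lymphocyte sums lower in HT7 than in NT7.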

How the data were processed

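Whole right lungs of 17 preterm rabbits were sequenced as stranded polyA libraries. The authors deposited 1 table of raw counts per gene, not normalized and with replicates kept apart. The submitters' notes name FastQC, STAR 2.7.10a and the OryCun 2.0 build, and the counting program is not given in the sources used here. Loci that hold several genes repeat their counts on several rows, but each neutrophil marker gene had a locus of its own. The labels and the study's methods name the right lung, although its results text names the left. HT5 has 2 samples here.

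From the counts, genes were filtered with filterByExpr (13142 of 13827 kept), scaled by TMM and fitted with edgeR 4.0.16 (R 4.3.3, quasi-likelihood test) as 6 group means over all 17 samples, which share 1 estimate of the spread, so that the 2 HT5 lungs are taken to vary like the others. The Benjamini-Hochberg adjustment ran over the 13142 genes. Log2FC used a small prior count and log2 CPM a prior of 2. DESeq2 1.42.0 was the other tool. The fit was tested on simulated counts with known changes. Totals of 13123731 to 18111086 counts set the precision, and a gene at 3 counts or fewer in a whole group got no fold.

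The members and lists were chosen with earlier results of these data known. Of each pathway list the text names the 6 genes with the smallest p on day 7 and the 3 with the smallest p on day 3, of each marker list at most 3 of the most abundant, and for each member the 2 genes with the most similar deviations from group means, of which 1 is not reported here.

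Same-numbered lungs of day 3 deviated together (correlations of 0.166, 0.131 and 0.199), so that fit was also made with the replicate number as a block. It left 0 of 8 members past the threshold on day 3. Other alternatives were size factors, library totals, no filter, 1 row per locus, only the groups compared, and leaving out each library.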

Additional observations from a re-analysis of the deposited data

How the results depend on the processing

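With the study's stricter thresholds the number of members past them was 0 for HT5 against NT5, 0 for HT7 against NT7 and 0 for HT7 against HT3. DESeq2 called 2 members for HT3 against NT3 and 1 for NT7 against NT3. Without a count filter, and with 1 row per locus, 1 member passed for HT5 against NT5 instead of 2, since CSF3R moved to an adjusted p of 0.0505. In fits of only the groups compared, 1 passed for HT5 against NT5, 0 for HT7 against NT7, 1 for HT5 against HT3, 0 for HT7 against HT3 and 1 for NT7 against NT3 (CSF3R, adjusted p = 0.0263). They also ended calls of IL1R2, VCAM1, AGER, SLC22A17 and MYD88 on day 5 (adjusted p = 0.087, 0.109, 0.0521, 0.053 and 0.0593) and of CXCR4 on day 7 (0.0729), and gained calls of TREM1 and VCAM1 on day 3 (log2FC 1.26 and 0.95, adjusted p = 0.0374 and 0.00678). These fits hold fewer samples. With the row described as rabbit CXCR2, an alternative chosen after seeing the data, 1 passed for HT5 against NT5, 1 for HT7 against NT7 and 0 for HT7 against HT3.

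Same-numbered lungs of day 7 correlated at 0.174, 0.109 and 0.0695, not all over 0.1, so the numbers were not taken as pairs, and on day 5 there are 2 pairs (0.264 and 0.141). With the replicate block, 1 member passed for HT5 against NT5 and 0 for HT7 against NT7 (MPO and the CXCR1-named row at adjusted p = 0.0583 and 0.0743), and on day 5 the log2FC of MPO was 0.53 and that of LTF 0.51, both reversed. The block ended 7 calls of single genes in all, IL1R2 on day 3 among them. Those of VCAM1, MYD88 and SLC22A17 on day 5 were also lost (edgeR adjusted p = 0.1393, 0.1185 and 0.0625). With library totals only, the LCN2 log2FC of HT7 against HT3 was 0.0032 in place of -0.05.

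Leaving out 1 library, the number of members past the threshold was 0 to 2 for HT5 against NT5, 0 to 1 for HT7 against NT7, 0 to 2 for HT7 against HT3 and 0 to 1 for HT7 against HT5. In the other 7 comparisons it was 0 in each fit, by edgeR. Log2FC values that changed sign ranged, for MPO, from -1.31 to 0.38 on day 3, from -0.69 to 0.57 on day 5 and from -0.22 to 1.503 for HT7 against HT3. For LTF they ranged from -0.62 to 1.67 on day 5, from -0.59 to 0.96 on day 7 and from -0.62 to 0.73 for NT7 against NT3. For LCN2 they ranged from -0.18 to 0.92 on day 7 and from -0.56 to 0.30 for HT7 against HT3. For HT7 against HT3 they ranged from -0.19 to 0.84 for S100A8, from -0.16 to 0.90 for S100A9 and from -0.30 to 0.67 for S100A12. For the CXCR1-named row, day 7 minus day 3 ranged from -0.57 to 0.0602. Size factors and a prior count of 2 kept the direction and the call of all 97 log2FC values recomputed. Beyond what each construction shows, the cause of these changes was not tested. MPO, at 1 to 70 counts a library, is limited by depth.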
